A study of Mus musculus with 6 samples.

Results

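This account covers 43 genes of fatty acid uptake, activation and oxidation, measured by RNA-seq in mouse bone marrow cells labelled as hematopoietic stem cells (HSCs), the scarce self-renewing cells at the root of blood formation. The 43 genes were listed by name for their role in the pathway, with earlier results of these data known. They are 43 of the 21851 genes with a usable symbol. They fall into 11 steps: 5 genes of uptake, 4 of activation, 4 of the carnitine shuttle, 6 acyl-CoA dehydrogenases, 5 enzymes of the following mitochondrial reactions, 3 auxiliary enzymes, 3 of electron transfer, 4 of peroxisomal oxidation, 2 thioesterases, 5 peroxisome proliferator-activated receptors (PPARs) and coactivators, and 2 lipases. The samples were 3 libraries of HSCs from mice exposed to ionizing radiation (IR) and 3 libraries of HSCs from control mice (Ctrl), and all 6 carry the wild-type genotype label. By the series design, the sort kept lineage-negative bone marrow cells with Sca-1, c-Kit and CD150 on their surface and without Flt3 and CD48. The labels give no radiation dose, no time after exposure, no age and no count of mice behind a library. The titles number the 3 libraries of a group as replicates but do not say that they came from separate mice, so the p-values rest on a spread among libraries that may be technical.

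A fatty acid enters a cell through membrane transporters, is bound by carrier proteins, and is activated by joining it to coenzyme A. Long chains then cross into mitochondria on carnitine, where each round of beta-oxidation removes a pair of carbons through a dehydrogenase, a hydratase, a second dehydrogenase and a thiolase. Electrons taken by the first dehydrogenase pass through the electron transfer flavoprotein to the respiratory chain, very long and branched chains are shortened in peroxisomes, and PPAR receptors with the PGC-1 coactivators are known to switch on genes of the pathway. In mouse HSCs, PPAR-delta and fatty acid oxidation are known for a role in stem cell maintenance.

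The 6 libraries rest on about 14400000 to 16300000 fragments each, estimated from the spacing of low values. Values were taken to be FPKM (fragments, scaled to 1 kilobase of transcript and to 1000000 mapped fragments). FPKM is per length, so levels of different genes can be set side by side. A gene was tested where it reached at least 1 FPKM in at least 3 libraries, which 10281 genes did, and differences were tested with limma on log2(FPKM + 1), IR minus Ctrl, with Benjamini-Hochberg adjusted p under 0.05 as the threshold for a call. Of the markers of the labelled cell type, Kit stood at 96.7 ± 1.65 FPKM in IR HSCs, against 97.5 ± 1.72 FPKM in Ctrl HSCs, and Slamf1, which encodes CD150, at 5.06 ± 0.443 FPKM in IR HSCs, against 3.57 ± 0.409 FPKM in Ctrl HSCs. RNA of Flt3 and Cd48, whose proteins the gate excluded, was present at 65.7 ± 1.43 FPKM in IR HSCs, against 125 ± 1.58 FPKM in Ctrl HSCs, and at 352 ± 8.0 FPKM in IR HSCs, against 400.1 ± 3.36 FPKM in Ctrl HSCs. Fgd5, a further HSC marker, stayed under 1 FPKM in all 6 libraries, while Mpo, a marker of granulocytic progenitors, stood at 2665 ± 7.99 FPKM in IR HSCs, against 2253 ± 9.23 FPKM in Ctrl HSCs, and Dntt, a marker of lymphoid progenitors, at 177 ± 2.97 FPKM in IR HSCs, against 429.9 ± 6.62 FPKM in Ctrl HSCs. These levels go against a library of HSCs alone, and the names IR HSCs and Ctrl HSCs are used after the labels. RNA is no measure of surface protein, and in bulk samples fewer cells of a type and less RNA per cell cannot be told apart.

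Upstream sequences are shown for 5 genes on which the results below turn: Acadm, Acadl and Cpt1a were lower in IR HSCs, Acadvl was higher, and Hadhb shares its upstream region with Hadha. They are RefSeq sequences on GRCm38.p6, read 5′ to 3′ on the strand of the gene, from the 250 bases before the RefSeq start and cut to the longest run outside GENCODE M21 exons. Capitals mark AGGTCA, the half-site bound by PPARs and other nuclear receptors, read on either strand (TGACCT on the other strand).
Acadm (chr3:153944644-153944893, minus strand): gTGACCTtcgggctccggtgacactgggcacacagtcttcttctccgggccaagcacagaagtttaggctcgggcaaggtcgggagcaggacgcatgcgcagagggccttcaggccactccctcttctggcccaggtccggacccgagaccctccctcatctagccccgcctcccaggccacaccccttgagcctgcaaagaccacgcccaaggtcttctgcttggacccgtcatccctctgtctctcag
Acadl (chr1:66863310-66863559, minus strand): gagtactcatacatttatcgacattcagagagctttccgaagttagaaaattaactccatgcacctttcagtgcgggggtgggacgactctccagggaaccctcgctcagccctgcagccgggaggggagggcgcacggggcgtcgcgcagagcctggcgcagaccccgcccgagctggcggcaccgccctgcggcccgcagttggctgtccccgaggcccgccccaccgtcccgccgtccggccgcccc
Acadvl (chr11:70015429-70015678, minus strand): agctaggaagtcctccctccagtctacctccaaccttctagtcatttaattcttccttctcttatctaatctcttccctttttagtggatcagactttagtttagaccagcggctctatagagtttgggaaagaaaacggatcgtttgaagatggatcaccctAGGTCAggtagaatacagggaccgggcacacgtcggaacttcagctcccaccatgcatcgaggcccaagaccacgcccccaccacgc
Cpt1a (chr19:3323051-3323284, plus strand): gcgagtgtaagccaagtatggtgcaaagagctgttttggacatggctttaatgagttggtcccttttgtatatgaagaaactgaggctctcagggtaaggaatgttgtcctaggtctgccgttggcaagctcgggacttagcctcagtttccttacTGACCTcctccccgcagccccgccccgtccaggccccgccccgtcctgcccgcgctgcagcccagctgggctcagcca
Hadhb (chr5:30155163-30155247, plus strand): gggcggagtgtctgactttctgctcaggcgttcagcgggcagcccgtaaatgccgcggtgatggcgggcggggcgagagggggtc
The half-site stood once each in the sequences of Acadm, Acadvl and Cpt1a, and not in those of Acadl and Hadhb. It therefore occurred upstream of 2 genes that were lower and 1 that was higher in IR HSCs. Over the full 250 bases, 33 of the 43 members matched the promoter table with 39 windows, of which 7 held AGGTCA on either strand, and 14.0% of all 32851 windows did. The DR1 element bound by PPARs, a pair of such half-sites in tandem with 1 base between them, was in none of the 39 windows and in 0.0335% of all windows. The RefSeq starts of Hadhb and Hadha, which point away from each other on chromosome 5, lie 273 bases apart. These matches describe letters in a window and say nothing of binding.

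Fatty acid genes were changed by small amounts and more often downward than upward. Of the 43 members 35 were tested, and each of the 35 reached at least 1 FPKM in all 6 libraries. In IR HSCs 15 were lower, 5 were higher and 15 were not called. The called share was 57.1% of the 35, against 54.7% of all 10281 tested genes, and was thus near the background. By direction, 42.9% of tested members were lower, against 28.9% of all tested genes, and 14.3% were higher, against 25.8%. The median log2 fold change was -0.095 over the tested members and -0.0072 over all tested genes. Only Slc27a1 among the 35 changed by more than 0.5 on the log2 scale. Of the 15 lower members 14 had IR libraries all below the Ctrl libraries, the exception being Lipe, and with Etfa, which was not called, 15 tested members lay so, against 32.5% of all tested genes. The 5 higher members and Acsl3, 6 in all, had IR libraries above all Ctrl libraries, against 29.1% of all tested genes, and without regard to direction the groups did not overlap in 61.7% of all tested genes. Of the 20 calls 16 held under all 14 alternative settings, and the other 4, Acad10, Eci1, Decr1 and Lipe, are marked where they are described.

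**Figure D1:**
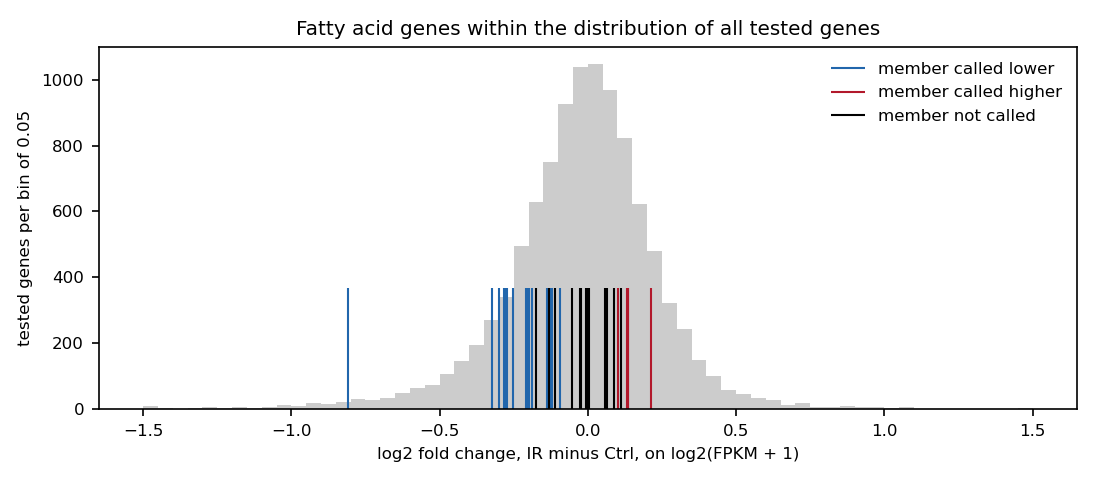
Log2 fold changes (IR minus Ctrl, on log2(FPKM + 1)) of the 35 tested fatty acid genes, drawn as vertical lines of arbitrary height, over the distribution of all 10281 tested genes in bins of 0.05 (gray bars; genes beyond 1.5 in either direction are counted in the end bins). Apart from Slc27a1 at -0.81, the members lie between -0.32 and 0.21.

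Markers of other cells that the libraries could hold also changed between the groups. Of 9 tested HSC markers 5 were lower and 2 higher, and Flt3 and Cd48, whose proteins the gate excluded, were both lower. Of 9 tested macrophage markers 7 were lower and none higher by limma. The summed level of the list was 513 to 519 FPKM in IR HSCs and 601 to 610.0 FPKM in Ctrl HSCs. Most of that sum was Lyz2, at 437 ± 1.75 FPKM in IR HSCs, against 510.0 ± 1.70 FPKM in Ctrl HSCs. Csf1r, Adgre1 and C1qa were among the 7, while Mertk, Siglec1 and Mrc1 stayed under 1 FPKM in every library. Of 8 tested megakaryocyte and platelet markers 6 were higher and none lower, with sums of 155 to 167 FPKM in IR HSCs and 99.8 to 103 FPKM in Ctrl HSCs. Of 12 adipocyte and stromal markers only 2 were tested, and Lep was at 0 in all 6 libraries. Of the 12, 8, Lep among them, stayed under 1 FPKM in every library. The sums were 15.9 to 16.6 FPKM in IR HSCs and 19.5 to 20.0 FPKM in Ctrl HSCs. Most of these sums was Pdgfrb, at 13.2 ± 0.232 FPKM in IR HSCs, against 14.8 ± 0.356 FPKM in Ctrl HSCs. Of 5 tested endothelial markers 3 were lower and 1, Tek, was higher. Endothelial markers summed to 56.8 to 60.5 FPKM in IR HSCs and 67.5 to 69.7 FPKM in Ctrl HSCs. Most of these sums was Pecam1, at 35.2 ± 1.63 FPKM in IR HSCs, against 43.1 ± 0.239 FPKM in Ctrl HSCs. Cdh5, Kdr, Flt4 and Stab2 stayed under 1 FPKM. Of 9 tested erythroid markers 5 were higher, among them Klf1, Epor and Car1, and 4 were lower, among them Hbb-bs and Hba-a1, and their sum, mostly Car2, was 573 to 578 FPKM in IR HSCs and 560.4 to 564 FPKM in Ctrl HSCs. Of 10 tested granulocytic markers 5 were higher, among them the early genes Mpo, Elane and Ctsg that carry the sum of 6089 to 6251 FPKM in IR HSCs and 5310.1 to 5343 FPKM in Ctrl HSCs. The other 5, the later genes Ngp, Camp, Ltf, S100a8 and S100a9, were lower, with log2 fold changes of -1.36, -0.98, -0.56, -0.47 and -1.01. Lcn2, also a later gene, went the other way and was among the 5 higher (log2 fold change 0.74, limma adjusted p = 5.05e-06). Of 6 tested lymphoid markers 4 were lower, Dntt among them, and 2 were higher. The sums were 889 to 892 FPKM in IR HSCs and 1058 to 1084 FPKM in Ctrl HSCs. The largest part of these sums was Nkg7, which was higher, at 648 ± 4.25 FPKM in IR HSCs, against 535 ± 11.8 FPKM in Ctrl HSCs. The part of these cells in the changes of the fatty acid genes was not tested.

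Among the genes of uptake, the transporter Slc27a1 was lower in IR HSCs while the carrier Fabp5 was not called. Slc27a1, which encodes fatty acid transport protein FATP1 (chromosome 8, 71568882 to 71587302, GRCm38), stood at 6.71, 6.72 and 8.11 FPKM in IR HSCs, against 14.1, 13.1 and 12.7 FPKM in Ctrl HSCs. Every IR library lay well below every Ctrl library, and IR replicate 3 was the highest of its group. On the log2 scale the difference was the widest among the 35 tested members, with a ratio of mean FPKM of 0.540 (log2 fold change -0.81, SE 0.069, limma adjusted p = 8.03e-06). Fabp5, a cytosolic fatty acid binding protein, stood at 105, 109 and 113 FPKM in IR HSCs, against 106, 106 and 101 FPKM in Ctrl HSCs, and the groups overlapped. It was not called (log2 fold change 0.064 with a 95% interval of -0.0064 to 0.13), although it passed without IR replicate 1 (limma adjusted p = 0.037). Of its 75-base stretches 12.1% also lie in the annotated genes Gm6166 and Gm14328. Fabp5 supplied most of the RNA of this step, with a share of summed FPKM of 91.6% ± 0.711 in IR HSCs and 86.2% ± 0.251 in Ctrl HSCs (SD, n = 3 each). Slc27a4, the related transporter FATP4, stood much lower at 2.03 ± 0.279 FPKM in IR HSCs, against 2.32 ± 0.159 FPKM in Ctrl HSCs and was not called (limma adjusted p = 0.178).

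Activation genes were mostly not called, and 1 of the 4 acyl-CoA synthetases was higher in IR HSCs. The higher share was thus near the 25.8% of all tested genes that were called higher. Acsl1, the long-chain synthetase best known from adipose tissue and muscle (chromosome 8, 46471037 to 46536051), stood at 6.16, 6.40 and 6.50 FPKM in IR HSCs, against 5.44, 5.39 and 5.20 FPKM in Ctrl HSCs. All IR libraries lay above all Ctrl libraries, and the difference was small (log2 fold change 0.21, SE 0.047, limma adjusted p = 0.0035). Acsl5, the most abundant of the 4, stood at 108, 107 and 106 FPKM in IR HSCs, against 111, 105 and 107 FPKM in Ctrl HSCs. Its groups overlapped, and the log2 fold change was -0.0049 with a 95% interval of -0.064 to 0.054. Acsl3, a synthetase linked to lipid droplets, stood at 27.3, 25.2 and 26.6 FPKM in IR HSCs, against 24.6, 24.5 and 25.1 FPKM in Ctrl HSCs. The IR libraries were again the higher ones, narrowly, and Acsl3 missed the threshold (limma adjusted p = 0.0699), which it passed after quantile normalization (limma adjusted p = 0.0452) and without IR replicate 2 (limma adjusted p = 0.0238). Acsl4, which prefers arachidonic acid, stood at 5.21 ± 0.223 FPKM in IR HSCs, against 4.74 ± 0.264 FPKM in Ctrl HSCs and was not called (limma adjusted p = 0.108). Acsl5 held 73.9% ± 0.587 in IR HSCs and 75.5% ± 0.371 in Ctrl HSCs of the summed FPKM of the step, and Acsl1 held 4.38% ± 0.162 in IR HSCs and 3.75% ± 0.109 in Ctrl HSCs (SD, n = 3 each).

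In the carnitine shuttle the entry enzyme Cpt1a was lower in IR HSCs, and the inner-membrane enzyme Cpt2 was not called. Cpt1a, the carnitine palmitoyltransferase of the outer mitochondrial membrane and the known rate-limiting step of long-chain oxidation (chromosome 19, 3322334 to 3385733), stood at 37.2, 35.9 and 37.6 FPKM in IR HSCs, against 44.6, 45.5 and 45.3 FPKM in Ctrl HSCs. The groups did not overlap, and the gap between them was several times the spread within either group (log2 fold change -0.28, SE 0.03, limma adjusted p = 3.3e-05). Cpt2, which returns the chain to coenzyme A inside the mitochondrion, stood at 19.8, 20.1 and 19.5 FPKM in IR HSCs, against 19.7, 19.3 and 20.5 FPKM in Ctrl HSCs. These values overlapped and gave a log2 fold change of -0.0016 with a 95% interval of -0.083 to 0.08. Within each library Cpt1a stood above Cpt2, with ratios of 1.88, 1.78 and 1.93 in IR HSCs, against 2.26, 2.36 and 2.21 in Ctrl HSCs, and the IR ratios lay below all Ctrl ratios. Crat, which moves acetyl groups onto carnitine, stood at 5.42 ± 0.459 FPKM in IR HSCs, against 5.93 ± 0.0808 FPKM in Ctrl HSCs and was not called (limma adjusted p = 0.127), but passed without IR replicate 2 (log2 fold change -0.17, limma adjusted p = 0.0234). Slc25a20, the carnitine-acylcarnitine carrier of the inner membrane and not a member, stood at 33.6 ± 0.996 FPKM in IR HSCs, against 40.2 ± 1.85 FPKM in Ctrl HSCs (log2 fold change -0.25, limma adjusted p = 0.000379).

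All 6 acyl-CoA dehydrogenases among the members, enzymes of the first oxidation reaction, were called, 4 lower and 2 higher. Of all tested genes 54.7% were called, 28.9% lower and 25.8% higher. Among acyl-CoA dehydrogenases outside the members, Acad11 and Acadsb were not called (limma adjusted p = 0.966 and 0.53). Acad8 and Acad12 were lower (limma adjusted p = 0.000118 and 0.0342). These outside genes were named here after their values were seen. The long-, medium- and short-chain enzymes Acadl, Acadm and Acads and the less studied Acad10 were lower in IR HSCs, and the very-long-chain enzyme Acadvl and its close relative Acad9 were higher. Acadl (chromosome 1, 66830839 to 66863277) stood at 124, 124 and 120.3 FPKM in IR HSCs, against 151, 147 and 148 FPKM in Ctrl HSCs (log2 fold change -0.28, SE 0.023, limma adjusted p = 7.9e-06). Acadm, the medium-chain enzyme (chromosome 3, 153922357 to 153944632), stood at 63.1, 63.7 and 63.3 FPKM in IR HSCs, against 75.5, 75.7 and 75.9 FPKM in Ctrl HSCs (log2 fold change -0.25, SE 0.024, limma adjusted p = 1.53e-05). The libraries of each group differed by under 1 FPKM in Acadm, and the groups lay far apart. Acads, the short-chain enzyme, stood at 19.9, 20.0 and 21.8 FPKM in IR HSCs, against 24.2, 23.3 and 23.8 FPKM in Ctrl HSCs (log2 fold change -0.20, SE 0.041, limma adjusted p = 0.00223). In these 3 genes every IR library was below every Ctrl library, and for Acads IR replicate 3 was the nearest to the controls.

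Acadvl (chromosome 11, 70010183 to 70015411) stood at 50.4, 51.8 and 53.1 FPKM in IR HSCs, against 48.0, 45.9 and 47.4 FPKM in Ctrl HSCs (log2 fold change 0.13, SE 0.031, limma adjusted p = 0.0047). Acad9, which is also known as an assembly factor of respiratory complex I, stood at 26.6, 26.9 and 27.8 FPKM in IR HSCs, against 24.4, 25.2 and 24.2 FPKM in Ctrl HSCs (log2 fold change 0.14, SE 0.034, limma adjusted p = 0.00639). For both genes all IR libraries were above all Ctrl libraries. Exons of Acadvl overlap those of Dvl2 on the other strand, and 11.8% of the 75-base stretches of Acad9 lie in the annotated gene Gm43079 as well. Acad10 was the least abundant of the 6, at 2.17, 2.02 and 2.97 FPKM in IR HSCs, against 3.02, 3.17 and 3.21 FPKM in Ctrl HSCs, and IR replicate 3 lay just below the Ctrl libraries while the other IR libraries were clearly lower. Its call (log2 fold change -0.30, SE 0.093, limma adjusted p = 0.0203) was lost without IR replicate 1 (limma adjusted p = 0.0682), IR replicate 2 (limma adjusted p = 0.0743), Ctrl replicate 2 (limma adjusted p = 0.0553) or Ctrl replicate 3 (limma adjusted p = 0.0522), and without the filter on low values (limma adjusted p = 0.0549). Acad10 shares 14.6% of its 75-base stretches with its neighbour Acad12, so its reads could be split between them. The ratio of Acadvl to Acadl was 0.407, 0.418 and 0.441 in IR HSCs, against 0.317, 0.311 and 0.321 in Ctrl HSCs, with no overlap. Acadl was the most abundant of the 6 in both groups, at 42.6% ± 0.890 in IR HSCs and 46.0% ± 0.280 in Ctrl HSCs of their summed FPKM. Acadvl held 18.0% ± 0.364 in IR HSCs and 14.6% ± 0.235 in Ctrl HSCs (SD, n = 3 each). The summed level of the 6 genes was 288 ± 1.69 FPKM in IR HSCs and 323 ± 2.88 FPKM in Ctrl HSCs (SD, n = 3 each).

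**Figure D2:**
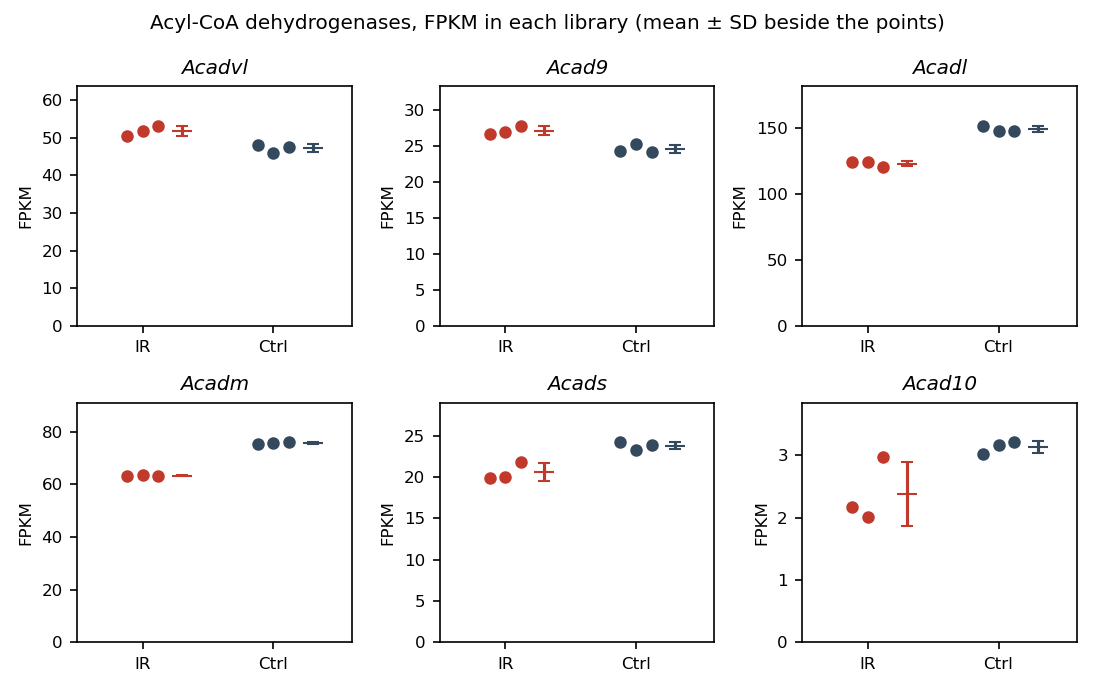
FPKM of the 6 acyl-CoA dehydrogenase genes among the members in each library (points, with IR left and Ctrl right). The mean ± SD of 3 libraries stands beside the points, and each vertical axis starts at 0 and has its own scale. Acadvl and Acad9 were higher in IR HSCs, and Acadl, Acadm, Acads and Acad10 were lower.

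Of the 5 genes of the following mitochondrial reactions, 3 were lower and 2 were not called, a called share near the 54.7% of all tested genes. Echs1, the short-chain enoyl-CoA hydratase, stood at 88.4, 83.2 and 87.4 FPKM in IR HSCs, against 100.3, 99.5 and 95.5 FPKM in Ctrl HSCs (log2 fold change -0.19, SE 0.031, limma adjusted p = 0.000599). Acaa2, the mitochondrial thiolase that releases acetyl-CoA, stood at 106, 98.0 and 102 FPKM in IR HSCs, against 108, 114 and 112 FPKM in Ctrl HSCs (log2 fold change -0.13, SE 0.033, limma adjusted p = 0.00825). In both genes the IR libraries were all below the Ctrl libraries, with a narrow gap of under 2 FPKM for Acaa2. Exons of Echs1 overlap those of Paox on the other strand, and those of Acaa1a, described further on, overlap Myd88 in the same way; whether counting used the strand is not stated in these sources. Hadh, the dehydrogenase of medium- and short-chain hydroxyacyl-CoA, stood at 63.3, 62.7 and 64.2 FPKM in IR HSCs, against 63.3, 66.6 and 64.0 FPKM in Ctrl HSCs, and the groups overlapped (log2 fold change -0.027 with a 95% interval of -0.09 to 0.035).

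The alpha and beta subunits of the mitochondrial trifunctional protein, Hadha and Hadhb, differed in their calls. Hadhb (chromosome 5, 30155248 to 30184593), whose subunit carries the thiolase, stood at 29.4, 30.1 and 29.4 FPKM in IR HSCs, against 33.4, 32.2 and 32.5 FPKM in Ctrl HSCs (log2 fold change -0.14, SE 0.031, limma adjusted p = 0.00377). The IR libraries were all below the Ctrl libraries. Hadha (chromosome 5, 30118304 to 30155162), whose subunit carries the hydratase and dehydrogenase, stood at 36.2, 35.3 and 36.2 FPKM in IR HSCs, against 36.7, 35.9 and 34.7 FPKM in Ctrl HSCs. Its groups overlapped, with a log2 fold change of 0.0042 with a 95% interval of -0.067 to 0.075. The ratio of Hadhb to Hadha within a library was 0.812, 0.854 and 0.812 in IR HSCs, against 0.910, 0.898 and 0.934 in Ctrl HSCs, and the IR ratios lay below all Ctrl ratios. The genes are transcribed away from each other from the shared upstream region printed above. Hadhb shares 57.2% of its 75-base stretches with the annotated genes Gm13910 and Gm9108, and exons of Hadha overlap those of Garem2 on the other strand, so reads of either gene could be assigned elsewhere.

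The auxiliary enzymes handle double bonds that the main cycle cannot, and here too the members of a family were called in opposite directions. Eci2, an enoyl-CoA isomerase of peroxisomes and mitochondria (chromosome 13, 34977748 to 35027096), stood at 57.7, 57.9 and 57.1 FPKM in IR HSCs, against 68.5, 72.4 and 68.7 FPKM in Ctrl HSCs (log2 fold change -0.27, SE 0.029, limma adjusted p = 3.47e-05). Eci1, the mitochondrial enoyl-CoA isomerase (chromosome 17, 24426641 to 24439348), stood at 103, 104 and 101 FPKM in IR HSCs, against 93.1, 93.9 and 100.3 FPKM in Ctrl HSCs (log2 fold change 0.10, SE 0.031, limma adjusted p = 0.0201). Eci2 was lower in every IR library and Eci1 higher in every IR library, although Ctrl replicate 3 nearly reached the IR values of Eci1. The ratio of Eci2 to Eci1 was 0.562, 0.555 and 0.565 in IR HSCs, against 0.735, 0.770 and 0.685 in Ctrl HSCs. The call of Eci1 was lost without IR replicate 2 (limma adjusted p = 0.0586), Ctrl replicate 1 (limma adjusted p = 0.0799) or Ctrl replicate 2 (limma adjusted p = 0.0737), and without the mean-variance trend (limma adjusted p = 0.0624). Decr1, the mitochondrial 2,4-dienoyl-CoA reductase, stood at 26.2, 25.8 and 26.2 FPKM in IR HSCs, against 28.8, 28.0 and 26.9 FPKM in Ctrl HSCs, with the IR libraries just below the Ctrl libraries (log2 fold change -0.095, SE 0.034, limma adjusted p = 0.0372). That call was lost after quantile normalization, without the mean-variance trend, with a replicate block and on leaving out any library but Ctrl replicate 3, with limma adjusted p between 0.0514 and 0.131.

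**Figure D3:**
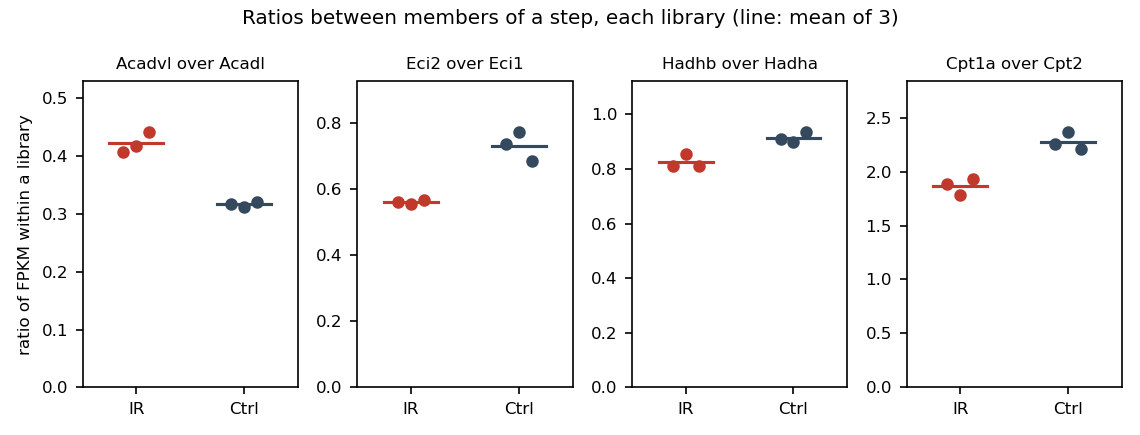
Ratio of the FPKM of paired members within each library (points; IR left, Ctrl right; lines mark the mean of 3 libraries; axes start at 0). In all 4 pairs shown, Acadvl over Acadl, Eci2 over Eci1, Hadhb over Hadha and Cpt1a over Cpt2, the IR and Ctrl libraries did not overlap. Each pair joins a called member to one that was not called or was called in the other direction. The separation thus follows largely from those calls and is no separate evidence.

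In electron transfer, the enzyme that hands electrons to ubiquinone was lower and the flavoprotein subunits were not called. Etfdh, the flavoprotein-ubiquinone oxidoreductase, stood at 43.1, 41.8 and 42.7 FPKM in IR HSCs, against 46.8, 45.6 and 46.7 FPKM in Ctrl HSCs (log2 fold change -0.12, SE 0.028, limma adjusted p = 0.00463). Its IR libraries were all below the Ctrl libraries. Etfb, the beta subunit of the flavoprotein and the most abundant member of all, stood at 416, 417 and 426 FPKM in IR HSCs, against 418, 420.0 and 419 FPKM in Ctrl HSCs. The groups overlapped and the log2 fold change was 0.00078 with a 95% interval of -0.039 to 0.041. Etfb shares 66.3% of its 75-base stretches with the overlapping annotated gene Gm45233. Etfa, the alpha subunit, stood at 132, 134 and 131 FPKM in IR HSCs, against 139, 137 and 136 FPKM in Ctrl HSCs, and its IR libraries were all slightly below the Ctrl libraries. It missed the threshold (log2 fold change -0.052, limma adjusted p = 0.0709) and passed it after quantile normalization (limma adjusted p = 0.0381).

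Peroxisomal members changed in both directions. Acox3, the peroxisomal oxidase of branched-chain acyl-CoA (chromosome 5, 35583040 to 35615352), stood at 5.46, 5.49 and 6.16 FPKM in IR HSCs, against 7.49, 7.58 and 7.09 FPKM in Ctrl HSCs (log2 fold change -0.32, SE 0.055, limma adjusted p = 0.000721). All IR libraries were below all Ctrl libraries, with IR replicate 3 the nearest to them. Hsd17b4, the D-bifunctional enzyme of the next reactions, stood at 47.4, 46.8 and 43.2 FPKM in IR HSCs, against 42.2, 41.7 and 40.7 FPKM in Ctrl HSCs (log2 fold change 0.14, SE 0.038, limma adjusted p = 0.0115). Its IR libraries were all above the Ctrl libraries, and IR replicate 3 was again the closest. Acaa1a, a peroxisomal thiolase, stood at 46.6, 52.4 and 49.7 FPKM in IR HSCs, against 48.2, 47.8 and 46.7 FPKM in Ctrl HSCs, with overlapping groups and no call (limma adjusted p = 0.258). It passed without IR replicate 1 (log2 fold change 0.10, limma adjusted p = 0.0398), and it shares 27.2% of its 75-base stretches with Acaa1b. Ehhadh, the L-bifunctional enzyme, stood at 3.60 ± 0.390 FPKM in IR HSCs, against 4.19 ± 0.300 FPKM in Ctrl HSCs and missed the threshold (log2 fold change -0.18, limma adjusted p = 0.0602). It passed with a replicate block (limma adjusted p = 0.0453), without IR replicate 2 (limma adjusted p = 0.0139) and without Ctrl replicate 1 (limma adjusted p = 0.036).

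Thioesterases release fatty acids from coenzyme A, and lipases release them from stored fat. Acot2, a mitochondrial thioesterase, stood at 7.20, 7.32 and 7.63 FPKM in IR HSCs, against 8.61, 8.30 and 8.95 FPKM in Ctrl HSCs (log2 fold change -0.20, SE 0.047, limma adjusted p = 0.00487). Every IR library was below every Ctrl library. The adjacent paralog Acot1, a cytosolic thioesterase and not a member, stood at 7.96 ± 0.754 FPKM in IR HSCs, against 15.3 ± 0.505 FPKM in Ctrl HSCs (log2 fold change -0.86, limma adjusted p = 2.08e-06). Acot2 shares 21.2% of its 75-base stretches with Acot1, Acot4 and Acot5, so reads of the pair could be split between them. Acot13, a thioesterase found with mitochondria, stood at 58.7, 62.0 and 58.0 FPKM in IR HSCs, against 61.0, 63.7 and 56.9 FPKM in Ctrl HSCs, with overlapping groups (log2 fold change -0.023 with a 95% interval of -0.12 to 0.072).

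Pnpla2, which encodes adipose triglyceride lipase, the first lipase of triglyceride breakdown, stood at 48.7, 50.2 and 53.0 FPKM in IR HSCs, against 52.3, 49.7 and 49.6 FPKM in Ctrl HSCs. The groups overlapped, with a log2 fold change of 0.0021 with a 95% interval of -0.08 to 0.084. Lipe, hormone-sensitive lipase, stood at 4.32, 5.21 and 4.30 FPKM in IR HSCs, against 5.59, 4.99 and 5.84 FPKM in Ctrl HSCs. The groups overlapped, since IR replicate 2 lay above Ctrl replicate 2, and the gene was still called lower (log2 fold change -0.21, SE 0.075, limma adjusted p = 0.0367). The call was lost without a filter, without the mean-variance trend, with a replicate block, and on leaving out IR replicate 1, IR replicate 3, Ctrl replicate 1 or Ctrl replicate 3, with limma adjusted p between 0.0525 and 0.121.

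**Figure D4:**
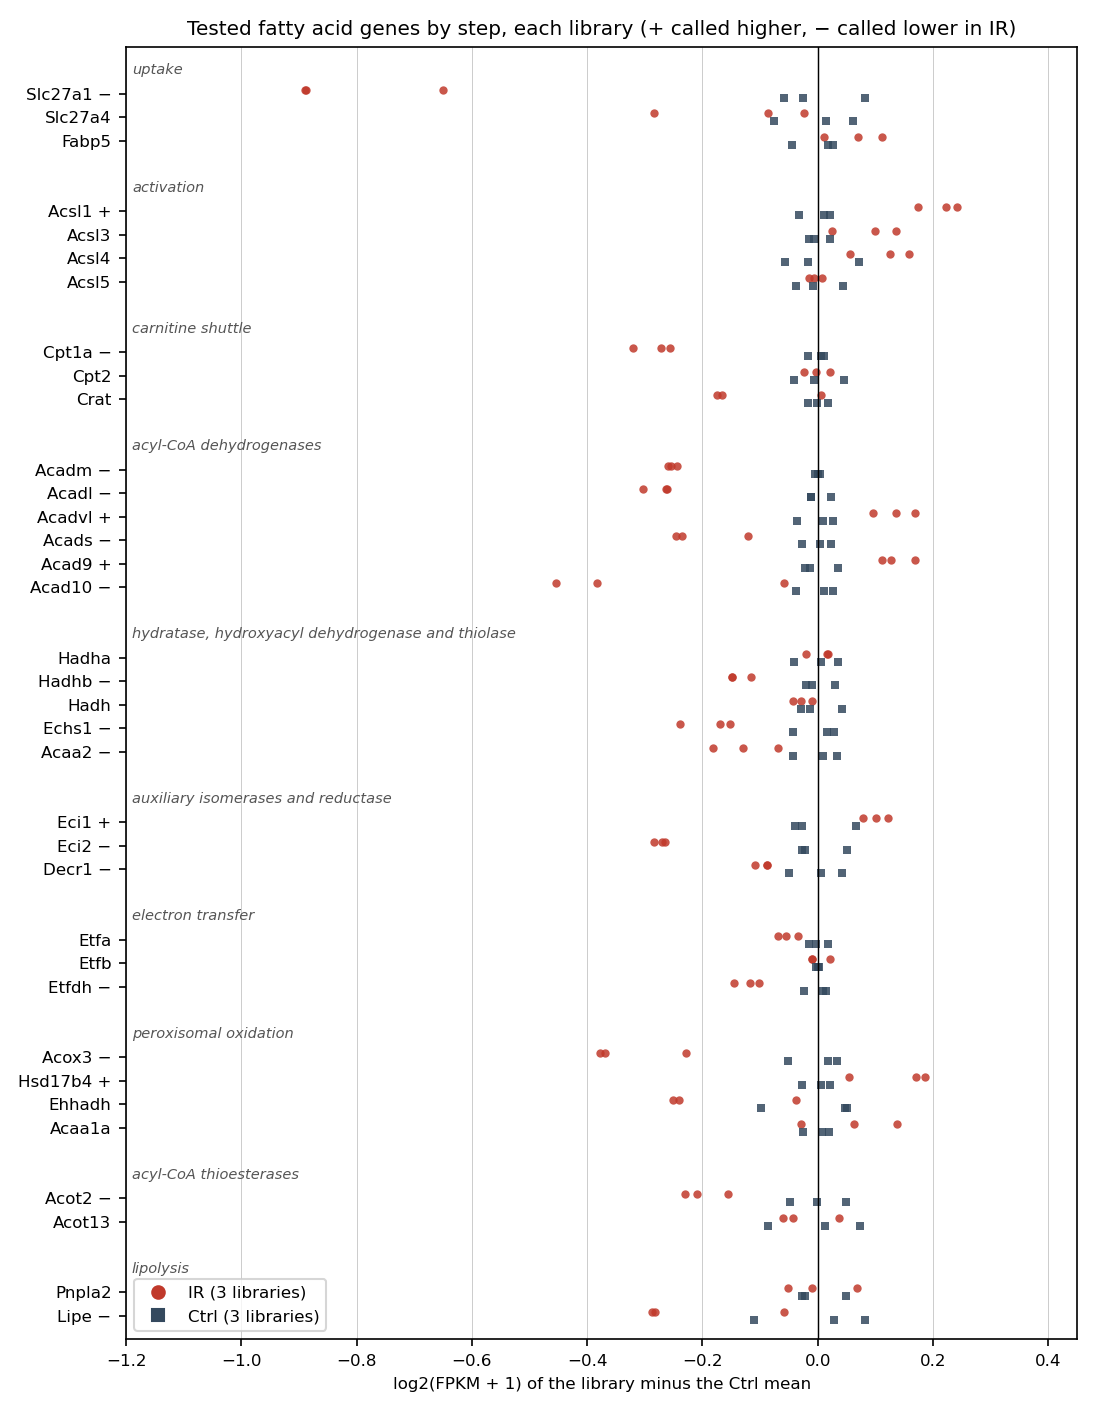
log2(FPKM + 1) of each library minus the mean of the 3 Ctrl libraries, for the 35 tested members grouped by step (circles, IR; squares, Ctrl). A plus sign marks the 5 members called higher and a minus sign the 15 called lower in IR HSCs by limma.

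The remaining 8 members lay under the filter and were not tested, among them all 5 PPAR receptors and coactivators. Ppara, the PPAR of liver, was listed at 0 in 5 libraries and at 0.0115 FPKM in Ctrl replicate 2. Ppard, the receptor known for its role in HSC maintenance, stood at 0.473, 0.568 and 0.368 FPKM in IR HSCs, against 0.273, 0.344 and 0.323 FPKM in Ctrl HSCs. Pparg, the receptor of adipocytes, stood at 0.216, 0.192 and 0.396 FPKM in IR HSCs, against 0.154, 0.0699 and 0.118 FPKM in Ctrl HSCs. For Ppard and Pparg the IR libraries were the higher ones, without overlap, at levels that correspond to fewer than 30 fragments per library. The coactivator Ppargc1b stood at 0.508, 0.596 and 0.564 FPKM in IR HSCs, against 0.360, 0.380 and 0.272 FPKM in Ctrl HSCs, with IR above Ctrl in every library. Its relative Ppargc1a stood at 0.0908, 0.0856 and 0.106 FPKM in IR HSCs, against 0.154, 0.161 and 0.216 FPKM in Ctrl HSCs, with IR below Ctrl in every library. In a fit without the filter, in which 43.2% of 15010 genes were called, Ppargc1b and Ppard were higher (limma adjusted p = 0.00623 and 0.0474), Ppargc1a and Cpt1b were lower (limma adjusted p = 0.0224 and 0.00058), and Pparg, Ppara, Cd36 and Lpl were not called (limma adjusted p = 0.0523, 0.829, 0.301 and 0.0956).

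Cpt1b, the muscle form of the carnitine palmitoyltransferase, stood at 0, 0 and 0.0241 FPKM in IR HSCs, against 0.234, 0.212 and 0.311 FPKM in Ctrl HSCs (chromosome 15, 89416405 to 89425863). With the longest coding transcript of 2895 bases and the estimated depths, this corresponds to about 0, 0 and 1 fragments in the IR libraries, against about 10, 10 and 13 in the Ctrl libraries. The groups did not overlap, but 92.1% of the 75-base stretches of Cpt1b also lie in the overlapping annotated gene Gm44502, so the source of these few fragments is uncertain. The uptake genes Cd36, a membrane receptor for fatty acids, and Lpl, which frees fatty acids from lipoproteins, stood at 0.287 ± 0.0474 FPKM in IR HSCs, against 0.230 ± 0.0671 FPKM in Ctrl HSCs, and at 0.557 ± 0.178 FPKM in IR HSCs, against 0.863 ± 0.215 FPKM in Ctrl HSCs, with overlapping groups.

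**Figure D5:**
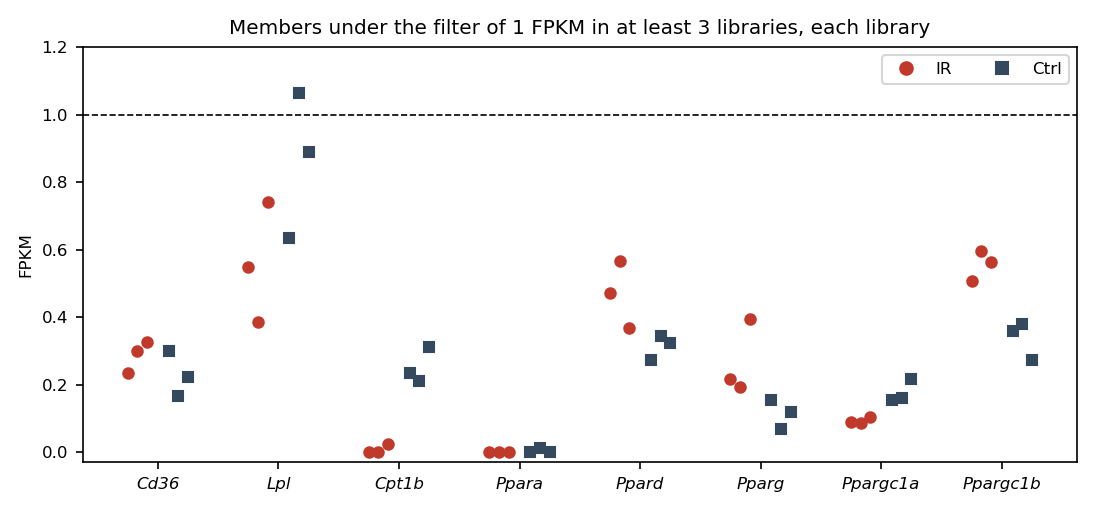
FPKM of the 8 members under the filter in each library (circles, IR; squares, Ctrl; dashed line, the filter minimum of 1 FPKM). Cpt1b and Ppargc1a lie lower in IR HSCs and Ppard, Pparg and Ppargc1b lie higher, without overlap, while Cd36, Lpl and Ppara overlap.

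Other genes of the pathway were more often lower than higher in IR HSCs as well. They were listed for their known role, but with earlier results of these data known, so they are no independent check on the members. Of 111 such genes 71 were tested, and 33 were lower, 15 higher and 23 not called, and their log2 fold changes had a median of -0.086. The lower share was 46.5% and the higher share 21.1%, read against 28.9% and 25.8% of all tested genes. Among further peroxisomal genes 8 of 11 were lower and none was higher by limma: Pex7, the import receptor of the type 2 signal, stood at 73.1 ± 2.21 FPKM in IR HSCs, against 92.0 ± 1.58 FPKM in Ctrl HSCs (log2 fold change -0.33), and the reductases Pecr and Decr2 and the lyase Hacl1 had log2 fold changes of -0.26, -0.33 and -0.26. Of the 11, 8 had an unadjusted p under 0.05, as did 6160 of all 10281 tested genes. Abcd3, a peroxisomal half-transporter of fatty acids, was higher at 18.9 ± 0.404 FPKM in IR HSCs, against 14.6 ± 0.221 FPKM in Ctrl HSCs (log2 fold change 0.35). Dbi, the acyl-CoA binding protein that carries activated chains, was higher at 355 ± 11.6 FPKM in IR HSCs, against 297 ± 6.87 FPKM in Ctrl HSCs (log2 fold change 0.25).

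In further mitochondrial oxidation 7 of 14 genes were lower and 2 higher, among them Hsd17b10, a hydroxyacyl-CoA dehydrogenase, at 163 ± 5.05 FPKM in IR HSCs, against 192 ± 2.03 FPKM in Ctrl HSCs (log2 fold change -0.24), the branched-chain dehydrogenase Acad8 at a log2 fold change of -0.29 and the propionyl-CoA carboxylase subunit Pccb at -0.39. Sirt3, the mitochondrial deacetylase known to act on Acadl, had the smallest p of these 71 genes, at 86.5 ± 1.59 FPKM in IR HSCs, against 119 ± 1.38 FPKM in Ctrl HSCs (log2 fold change -0.46, limma adjusted p = 3.92e-07). Acss1, the mitochondrial acetyl-CoA synthetase, the lipoprotein receptor Vldlr and the lysosomal lipase Lipa had log2 fold changes of -0.33, -0.24 and -0.23. These and the genes above make up the 15 of the 71 with the smallest p, and all 15 had limma adjusted p between 3.92e-07 and 0.000475. Among genes known to respond to PPARs, Angptl4, a lipoprotein lipase inhibitor, was lower (log2 fold change -0.17), and Ucp2, a mitochondrial carrier, was higher (log2 fold change 0.081). Both were named after their values were seen.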

How the data were processed

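RNA-seq of 3 IR and 3 Ctrl libraries of sorted HSCs was used as the authors deposited it, as 1 FPKM value per gene and library. The file headers name no unit; it was read from the spacing of low values. Per the submitters' processing notes, fastp, HISAT2, StringTie and the build GRCm38 (mm10) were used; no source used here gives versions, annotation or order. Of 21878 entries, 27 whose symbols read as calendar dates (0.175% to 0.189% of summed FPKM) were left out. Differences were tested with limma 3.58.1 (R 4.3.3, empirical Bayes with trend) on log2(FPKM + 1), over the 10281 genes that reached 1 FPKM in 3 or more libraries, with Benjamini-Hochberg adjustment over all of them and a threshold of 0.05 with no minimum fold. The fit was tested on simulated data. An exact permutation test of 3 against 3 libraries cannot go below p = 0.1, so none is given for ratios and shares. The ratios given pair members whose calls differ, so they largely restate those calls. Fold changes on this scale understate those of low genes. Depth was estimated from low values of single-transcript genes, as whole multiples of the value of 1 fragment with a tolerance of 0.01 that 24.7% to 30.2% of those values met, so depths and fragment numbers are approximate. Shared sequence is the share of 75-base stretches of a gene's longest coding GENCODE M21 transcript found in transcripts of other genes. The members and all lists were chosen with earlier results of these data known. All 43 members are named; values in every library are given for called members and for other tested members at a mean of at least 10 FPKM, and the 15 other pathway genes with the smallest p are named. Values in every library are also given for 5 untested PPAR members and Cpt1b, an addition to this rule. Alternatives changed the pseudocount (0.1 or 5), the filter (none, or 5 FPKM), the scaling, the variance trend and the libraries, and added a replicate block.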

Additional observations from a re-analysis of the deposited data

How the results depend on the processing

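Under the alternatives the counts of called members, of other pathway genes and of all genes stayed within 1.5 times those reported, and the median log2 fold change of all genes moved by 0.016 with quantile normalization and by 0.0027 with equal library totals. Leaving out 1 library gave 4 to 7 higher and 12 to 15 lower members, 12 to 14 higher and 28 to 30 lower other pathway genes, and 2342 to 2429 higher and 2645 to 2767 lower genes in all. Of the 20 member calls 16 were kept in all 14 settings, and the 15 other pathway genes named kept theirs. The sign changed in 6 members that were not called, and the cause was not tested. The log2 fold change of Cpt2 was 0.012 after quantile normalization, 0.0012 with equal library totals and -0.022 to 0.021 on leaving out 1 library. That of Etfb was -0.032 after quantile normalization and -0.0099 to 0.0064 on leaving out 1 library. Leaving out 1 library also gave -0.024 to 0.017 for Acsl5, -0.016 to 0.022 for Hadha, -0.066 to 0.014 for Acot13 and -0.031 to 0.029 for Pnpla2. No shared deviation of same-numbered libraries was seen: their deviations from their group means correlated at 0.0085, -0.031 and -0.049. The labels do not say whether same-numbered libraries were matched, and low correlations cannot decide it. With replicate number as a block, 5 members were higher and 14 lower, 13 and 32 of the other pathway genes, and 2539 and 2840 of all genes. Counts under the filter of 5 FPKM rest on fewer genes, among them 32 members. Depth limits the 8 members under the filter, of which Lpl reached 1 FPKM in 1 library.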
